A study of Mus musculus with 12 samples.

Results

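The genes described here are the ligands and receptors of 2 growth factor families, platelet-derived growth factors (PDGF) and fibroblast growth factors (FGF), in primary mouse brain endothelial cells (BECs). They were taken by symbol from the deposited tables: the PDGF ligands Pdgfa, Pdgfb, Pdgfc and Pdgfd, the PDGF receptors Pdgfra and Pdgfrb, the FGF ligands Fgf2 and Fgf7, and the FGF receptor Fgfr1. All 9 were listed in both tables, among 32419 genes listed in at least 1 of them.

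RNA was sequenced from BECs of C57BL/6 mice, isolated at 8 weeks of age and enriched with puromycin, each replicate being a pool of 3 mice. Cells carried cortistatin (Cort+/+, wild type) or came from cortistatin-deficient mice (Cort-/-, called KO in the labels). They were kept 24 h in normoxia and normoglycemia (NX/NG, 21% O2), or put through oxygen-glucose deprivation and reoxygenation (OGD-R), a culture model of ischemia. OGD-R was 4 h without glucose or serum in low oxygen (1% O2), then 20 h with oxygen, glucose and serum restored. Oxygen, glucose and serum thus changed together, and the comparisons do not separate them. The labels name all samples an ischemic stroke mouse model (MCAO), and a culture enriched from pooled brains may hold other cell types. Of 12 samples listed, 10 had a column: 3 Cort+/+ and 2 Cort-/- libraries in each environment, while the Cort-/- samples numbered 3 under NX/NG and 2 after OGD-R are not used here.

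PDGF ligands act as paired chains on the receptor tyrosine kinases PDGFRα and PDGFRβ. In the brain microvasculature, endothelial PDGF-B is best known for recruiting PDGFRβ-bearing pericytes, the mural cells that wrap capillaries. FGF2 is a heparin-binding ligand made by many vascular cells, FGF7 is typically made by mesenchymal cells and read by a splice form of FGFR2, and FGFR1 is a broadly expressed receptor for FGF2 and others.

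Pdgfc and Fgf7 were the pair of genes whose levels followed each other most closely over the libraries, so the 250 bases before their RefSeq start sites are shown (build GRCm38.p6, forward strand). Capitals mark the letters of any of 5 motifs searched on both strands: the GC box GGGCGG, the TATA box TATAAA, the CCAAT box, the core hypoxia element ACGTG and the AP-1 site TGANTCA.
Fgf7 chr2:126034408-126034657: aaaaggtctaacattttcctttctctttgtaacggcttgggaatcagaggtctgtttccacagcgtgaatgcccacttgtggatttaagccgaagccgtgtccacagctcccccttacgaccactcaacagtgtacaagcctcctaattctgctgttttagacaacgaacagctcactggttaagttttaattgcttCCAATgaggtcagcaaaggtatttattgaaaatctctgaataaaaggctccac
Pdgfc chr3:81036166-81036415: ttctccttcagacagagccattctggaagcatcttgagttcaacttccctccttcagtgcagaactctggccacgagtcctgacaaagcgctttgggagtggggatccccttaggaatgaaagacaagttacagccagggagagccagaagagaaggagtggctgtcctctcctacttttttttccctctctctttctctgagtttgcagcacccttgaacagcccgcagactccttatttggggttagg
The Fgf7 window held 1 CCAAT, a motif present in 33.8% of the 32851 promoters of this length in the table, and the Pdgfc window held none of the 5. GGGCGG was present in 32.7% of these promoters, TATAAA in 12.4%, ACGTG in 16.6% and TGANTCA in 6.75%. GC content was 43.6% for Fgf7 and 50.8% for Pdgfc, against a median of 52.4% over the table. The Fgf7 window lay inside an intron of Fam227b, which runs on the opposite strand, and overlapped none of its exons.

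In GENCODE vM21 (GRCm38), the ligand genes were annotated at chr5:138976014-138997370 (Pdgfa, minus strand), chr15:79995874-80014977 (Pdgfb, minus), chr3:81036416-81214040 (Pdgfc, plus), chr9:6168584-6378850 (Pdgfd, plus), chr3:37348346-37410108 (Fgf2, plus) and chr2:126034658-126091185 (Fgf7, plus). The receptors lay at chr5:75152292-75198215 (Pdgfra, plus), chr18:61045150-61085061 (Pdgfrb, plus) and chr8:25513654-25575718 (Fgfr1, plus). All are protein-coding, and values were read over all their exons together. None shared the chromosome of Cort, which is on chromosome 4.

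Before any result, the libraries were checked. Each held between 12386048 and 12390428 reads on genes. Cort, the deleted gene, had 0 reads in all 4 Cort-/- libraries and 0 to 2 reads in Cort+/+ libraries, with 2 of the Cort+/+ OGD-R libraries also at 0, so that it barely separates the genotypes at this depth. A pair of OGD-R libraries, the Cort-/- library numbered 3 and the Cort+/+ library numbered 1, carried almost no ribosomal RNA: Rn18s-rs5 made up 0.0951% and 0.0775% of their reads, against 7.64% to 15.8% elsewhere. For the 9 genes, differences that involve OGD-R are given with these 2 libraries and, further on or among the limits, without them. Of 15 endothelial markers, 13 averaged at least 1 RPKM (reads divided by exon length in kilobases and by library size), led by the junction protein Cdh5 at 558 RPKM. Smooth muscle (8 of 8 markers, Acta2 at 888 RPKM) and fibroblast or leptomeningeal markers (8 of 12, Col1a1 at 135 RPKM) were high too. Pericyte markers were low (4 of 10 at 1 RPKM or more, Cspg4 highest at 3.66 RPKM), and the defining markers Kcnj8 and Abcc9 were near 0, as was the oligodendrocyte progenitor gene Olig1. Of the other lists, 1 of 8 oligodendrocyte markers (Cnp, 12.4 RPKM) and 2 of 7 astrocyte markers (Gja1, 13.0 RPKM) reached 1 RPKM. So did 0 of 6 neuronal markers (Reln highest, 0.478 RPKM), 3 of 9 macrophage markers and 3 of 10 choroid plexus markers (Clic6, 15.2 RPKM). Choroid plexus markers were uneven between pools. They summed to 63.2 RPKM in Cort+/+ NX/NG replicate 2 and 55.4 RPKM in Cort-/- OGD-R replicate 1, against 18.0 to 30.2 RPKM elsewhere. The keratin Krt8 ranged from 0.125 to 18.7 RPKM within the first of these groups and from 0.0749 to 11.9 RPKM within the second. The part of this unevenness in the results below was not tested.

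Levels per kilobase spanned a wide range over the 9 genes, and Pdgfb led them in each of the 10 libraries. Its mean over the 10 libraries was 87.1 RPKM, above 98.4% of the 27321 genes in both tables, and Pdgfd followed at 42.0 RPKM. Fgfr1 (14.5 RPKM), Pdgfa (11.6), Pdgfrb (11.2) and Fgf7 (10.6) formed a middle group. Pdgfc (3.09), Fgf2 (2.32) and Pdgfra (0.466) were low, Pdgfra resting on 37 to 90 reads per library and Pdgfb on 3288 to 5731. Within the middle group the order did not hold from library to library: Pdgfrb lay below Pdgfa in 6 of 10 libraries and Fgf7 below Pdgfrb in 7 of 10. Pdgfrb varied most between libraries, its highest value being 2.98 times its lowest, and Fgfr1 least, at 1.28 times.

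**Figure D1:**
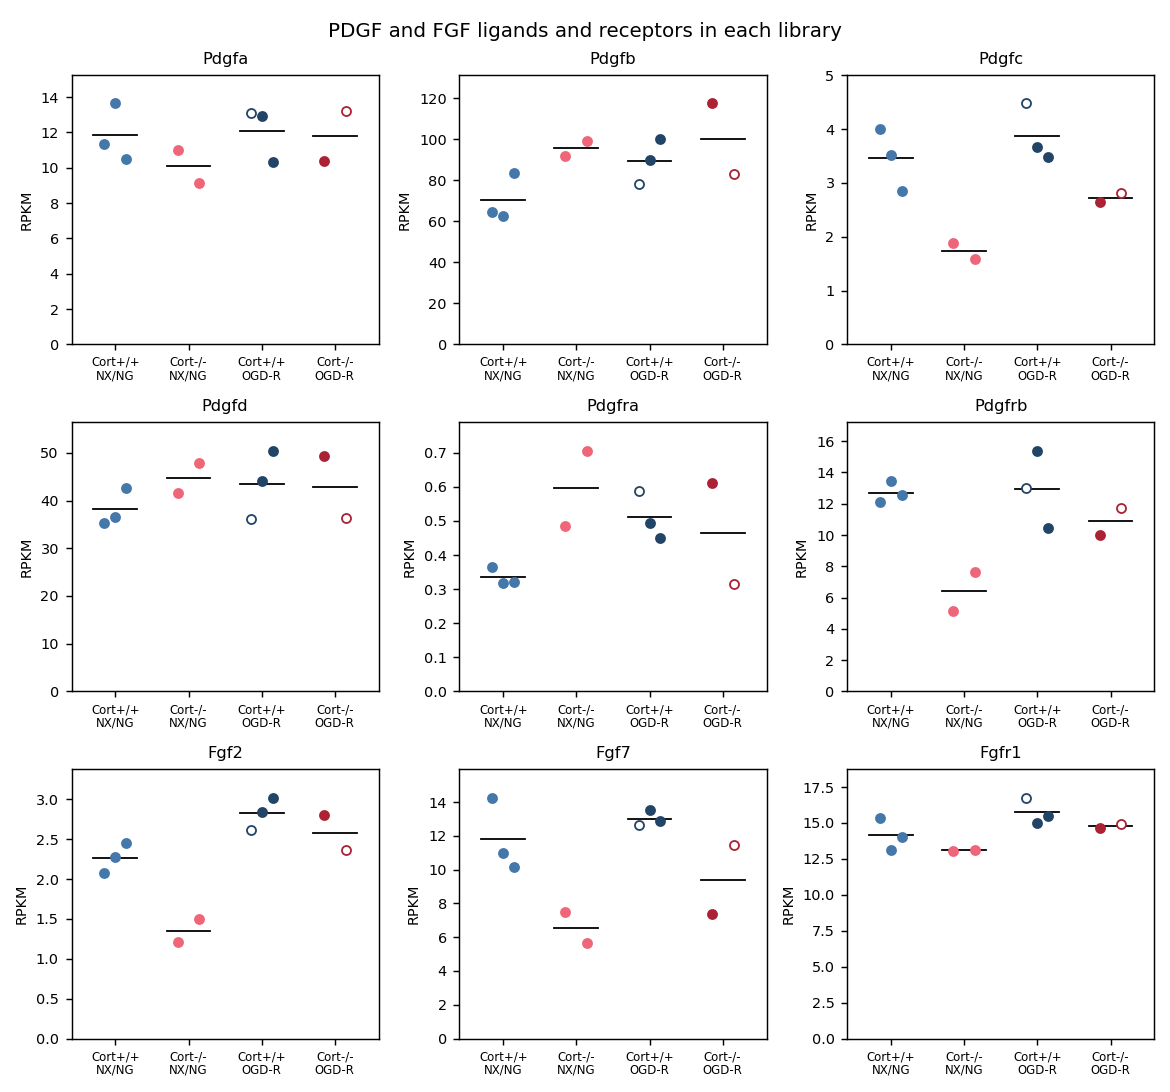
RPKM of each gene in each of the 10 libraries, by genotype and environment (1 point per library, black bar at the group mean, open points for the 2 libraries with under 1% of reads on Rn18s-rs5; the authors scaled the NX/NG and OGD-R tables separately). The 2 lowest values of Pdgfc, Pdgfrb and Fgf2 are those of the Cort-/- NX/NG libraries.

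The comparison of Cort-/- with Cort+/+ BECs under NX/NG asks what cortistatin deficiency does to uninjured endothelium. Here Pdgfrb, Pdgfc, Fgf7 and Fgf2 were lower and Pdgfb was higher in Cort-/- cells at an unadjusted p under 0.05, but none of the 8 genes tested passed a false discovery rate (FDR) of 0.05 in limma, a linear model fitted over 15695 genes on log2(RPKM + 0.1). No gene at all passed it (0% of those tested). Of all genes tested, 5.03% were higher and 7.51% lower at an unadjusted p under 0.05, against 1 and 4 of the 8. The median log2 fold change was -0.47 over the 8 and 0.01 over all genes. In bulk RNA such as this, fewer cells of a type and less RNA per cell cannot be told apart. Genes averaging under 0.5 RPKM were left out of the test. Pdgfra lay under that mean in 4 of the 5 comparisons made here and was read from fits without the filter in all of them.

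Among the ligands, Pdgfb, the pericyte-recruiting chain, was at 91.8 and 99.3 RPKM in the Cort-/- libraries and at 64.5, 62.7 and 83.7 RPKM in the Cort+/+ libraries. The groups did not overlap, and the log2 fold change was 0.45 (SE 0.14, 95% interval 0.09 to 0.81, limma FDR 0.337). Leaving out any of Cort-/- replicates 1 and 2 or Cort+/+ replicates 1 and 2 took its unadjusted p over 0.05. Pdgfc, a chain that is secreted latent and activated by proteolysis, showed the opposite direction, with 1.89 and 1.59 RPKM in Cort-/- against 4.01, 3.53 and 2.85 RPKM in Cort+/+ libraries. Its groups were also apart, with a log2 fold change of -0.94 (SE 0.17, interval -1.38 to -0.50, limma FDR 0.215). Pdgfa, a PDGFRα ligand, and Pdgfd, a PDGFRβ ligand activated like Pdgfc, overlapped between genotypes. Pdgfa was at 11.01 and 9.13 RPKM against 11.3, 13.6 and 10.5 RPKM (log2 fold change -0.23, interval -0.59 to 0.13), and Pdgfd at 41.6 and 47.8 against 35.2, 36.6 and 42.6 RPKM (0.23, interval -0.05 to 0.51).

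The receptor Pdgfrb, the classical pericyte and mural cell marker, had the largest difference of the 9 in this fit. It was at 5.17 and 7.66 RPKM in Cort-/- and at 12.1, 13.5 and 12.6 RPKM in Cort+/+ libraries, so the means were 6.41 ± 1.76 (SD, n = 2) and 12.7 ± 0.689 RPKM (SD, n = 3). The log2 fold change was -1.001 (SE 0.172, interval -1.44 to -0.56, limma FDR 0.207). Without Cort-/- replicate 1 it was -0.72, and those of Pdgfc (-1.06) and Fgf7 (-1.03) were larger. Pdgfc was also the larger, at -1.07 against -1.01, without Cort+/+ replicate 3 and with a replicate block. Limma-voom on the reads gave -1.01 with an FDR of 0.0400 and called Pdgfrb among 54 genes. Pdgfra, the receptor of mesenchymal and oligodendrocyte progenitor cells, was at 0.485 and 0.706 RPKM in Cort-/- and at 0.366, 0.319 and 0.320 RPKM in Cort+/+ libraries. Its groups lay apart in the opposite direction to Pdgfrb. The log2 fold change was 0.66, and its interval, -0.09 to 1.41, included 0 (unadjusted p over 0.05). That depended on the fit, as limma-voom gave 0.80 (interval 0.29 to 1.31, FDR 0.195).

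Of the FGF genes, both ligands were lower in Cort-/- libraries and the receptor hardly differed. Fgf7 was at 7.48 and 5.67 RPKM against 14.3, 10.97 and 10.1 RPKM in Cort+/+ libraries (log2 fold change -0.83, SE 0.19, interval -1.31 to -0.35, limma FDR 0.273). Fgf2 was at 1.21 and 1.497 RPKM against 2.08, 2.28 and 2.45 RPKM (-0.71, SE 0.15, interval -1.09 to -0.34, limma FDR 0.251). For both ligands every Cort-/- library lay below every Cort+/+ library. Fgfr1 was at 13.078 and 13.115 RPKM against 15.3, 13.116 and 14.01 RPKM, a gap with no width to speak of (log2 fold change -0.11, interval -0.32 to 0.10). Among the 8 genes tested, 5 had every Cort-/- library lower and 1 had every Cort-/- library higher, where 16.5% and 15.6% of all genes did. The unadjusted p of Pdgfrb, Pdgfc, Fgf2 and Fgf7 was under 0.05 under each of 13 alternatives of processing or left-out libraries, and that of Pdgfb under 9 of 13.

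**Figure D2:**
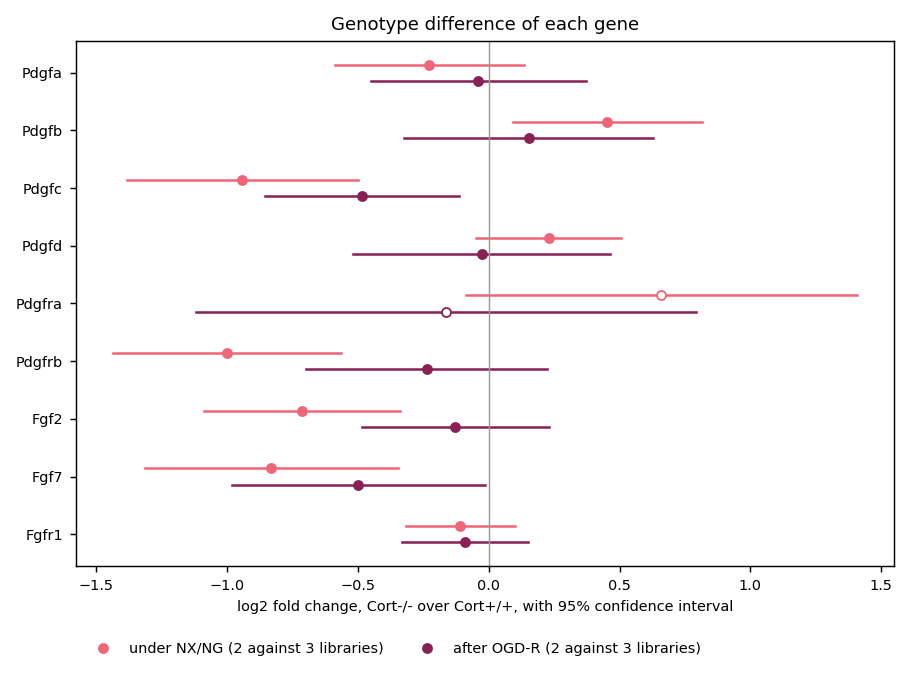
Log2 fold change of Cort-/- over Cort+/+ BECs (points) with its 95% confidence interval from limma (lines) under NX/NG and after OGD-R, 2 against 3 libraries each; open points mark Pdgfra, read from the fit without a filter. Under NX/NG the intervals of Pdgfrb, Pdgfc, Fgf7 and Fgf2 lie below 0 and that of Pdgfb above it, while after OGD-R those of Pdgfc and Fgf7 lie below 0.

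Some markers of other cell types differed between the same libraries. None of the 9 genes is on these lists. Of all genes tested, 5.03% were higher and 7.51% lower at an unadjusted p under 0.05. The summed level of 10 pericyte markers was 5.30 to 5.47 RPKM in the Cort-/- and 9.15 to 13.2 RPKM in the Cort+/+ NX/NG libraries, with 3 of 4 tested members lower at an unadjusted p under 0.05, and Cspg4, the NG2 proteoglycan, averaged 1.02 against 3.92 RPKM (log2 fold change -1.91, limma FDR 0.178). The sum of 12 fibroblast and leptomeningeal markers was 90.7 to 128 RPKM against 205 to 289 RPKM, with 6 of 9 tested members lower and 1 higher at an unadjusted p under 0.05. The collagens Col1a1 (57.0 against 145 RPKM) and Col1a2 (19.8 against 51.6 RPKM) were among the lower, and the higher one was Ptgds, a prostaglandin synthase (3.31 against 1.63 RPKM, log2 fold change 0.97, limma FDR 0.325). Endothelial markers summed to 1508 to 1660 RPKM in Cort-/- against 1169 to 1472 RPKM in Cort+/+ libraries, and smooth muscle markers overlapped, at 1572 to 1877 against 1790 to 2130 RPKM. Sums of astrocyte markers were apart as well, at 10.5 to 12.5 against 15.3 to 20.01 RPKM (1 of 2 tested lower and 1 higher), and those of macrophage markers lay apart in the other direction, at 37.4 to 38.7 against 29.4 to 33.1 RPKM (2 of 3 tested higher). The part of these markers in the differences of Pdgfrb, Pdgfc, Fgf2, Fgf7 and Pdgfb was not tested.

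**Figure D3:**
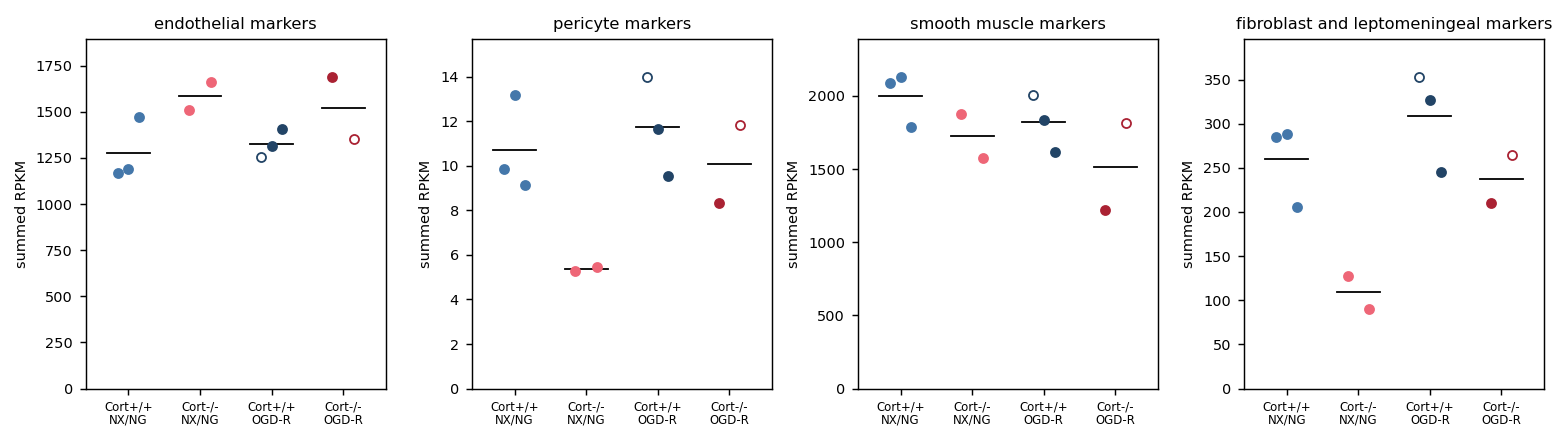
Summed RPKM of the endothelial (15 genes), pericyte (10), smooth muscle (8) and fibroblast and leptomeningeal (12) marker lists in each library (1 point per library, black bar at the group mean, open points for the 2 libraries with under 1% of reads on Rn18s-rs5). The 2 Cort-/- NX/NG libraries have the lowest pericyte sums, 5.30 and 5.47 RPKM, and the lowest fibroblast and leptomeningeal sums, 90.7 and 128 RPKM.

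The genes differed in how many of their exonic bases they share with a neighbour, which matters because the sources used here do not say whether counting used strand. Of Fgf2's exonic bases, 13.2% overlap the antisense Nudt6 or Gm43439 on the same strand. Nudt6 was at 1.98 ± 0.343 RPKM (SD, n = 2) in Cort-/- and 3.11 ± 0.137 RPKM (SD, n = 3) in Cort+/+ NX/NG libraries (log2 fold change -0.63, limma FDR 0.253). Gm43439 was at 1.37 ± 0.554 against 3.44 ± 0.795 RPKM (-1.29, limma FDR 0.290). Both neighbours thus differed in the direction of Fgf2. Strand cannot separate the bases that Fgf2 shares with Gm43439, and separates those shared with Nudt6 only if counting used it. The 3 are therefore not taken as independent. Gm16000, antisense to 2.89% of the exonic bases of Pdgfc, was also lower (1.97 ± 0.292 against 3.75 ± 0.450 RPKM, -0.90, limma FDR 0.196). Pdgfa shared 26.1% of its bases with the antisense 6330403L08Rik, at 1.57 ± 0.185 against 2.07 ± 0.270 RPKM, Pdgfra 6.5% and Fgfr1 1.66%, while Pdgfb, Pdgfd, Pdgfrb and Fgf7 shared none.

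After OGD-R, the genotype comparison asks whether cortistatin deficiency alters the injured endothelium. Pdgfc and Fgf7 were again lower in Cort-/- BECs, and for the other 7 genes the interval of the difference included 0. Limma over 15785 genes called none at an FDR of 0.05 (0%), and 1.4% of all genes were higher and 2.19% lower at an unadjusted p under 0.05, against 0 and 2 of the 8 tested (median log2 fold change -0.11, all genes -0.01). For Pdgfc the Cort-/- libraries were at 2.65 and 2.81 RPKM and the Cort+/+ libraries at 4.48, 3.66 and 3.49 RPKM, with no overlap (log2 fold change -0.48, SE 0.15, interval -0.86 to -0.11, limma FDR 0.999). For Fgf7 they were at 7.35 and 11.5 against 12.6, 13.5 and 12.9 RPKM (-0.50, SE 0.20, interval -0.98 to -0.01, limma FDR 0.999). Cort-/- replicate 3, 1 of the 2 libraries low in Rn18s-rs5, held the Fgf7 value nearest to wild type. Without that library and its Cort+/+ counterpart the log2 fold change was -0.84 for Fgf7 (unadjusted p under 0.05) and -0.42 for Pdgfc (unadjusted p over 0.05). Without Cort-/- replicate 1 it was -0.18 for Fgf7 and -0.44 for Pdgfc, and no member had an unadjusted p under 0.05. Leaving out any of the 3 Cort+/+ libraries gave -0.52 to -0.47 for Fgf7 (unadjusted p over 0.05) and -0.55 to -0.38 for Pdgfc (unadjusted p under 0.05).

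Pdgfrb and Fgf2 overlapped between the genotypes after OGD-R. Pdgfrb was at 9.98 and 11.8 RPKM in Cort-/- and at 13.0, 15.4 and 10.4 RPKM in Cort+/+ libraries (log2 fold change -0.24, interval -0.70 to 0.22). Fgf2 was at 2.80 and 2.37 against 2.62, 2.84 and 3.02 RPKM (-0.13, interval -0.49 to 0.23). Pdgfb was at 117 and 83.2 RPKM against 78.0, 90.0 and 100.1 RPKM, so the 2 Cort-/- libraries lay above and within the Cort+/+ range (0.15, interval -0.32 to 0.63). Pdgfd (49.3 and 36.3 against 36.1, 44.1 and 50.5 RPKM) and Pdgfa (10.4 and 13.2 against 13.1, 12.9 and 10.3 RPKM) spread as widely within a genotype as between them. Without the 2 libraries low in Rn18s-rs5 the difference was -0.34 for Pdgfrb, -0.062 for Fgf2, 0.31 for Pdgfb, -0.15 for Pdgfa and -0.0598 for Fgfr1, each at an unadjusted p over 0.05. In both genotypes the library low in Rn18s-rs5 had the lowest Pdgfb and Pdgfd and the highest Pdgfa of its group. Pdgfra was at 0.612 and 0.314 against 0.588, 0.494 and 0.451 RPKM. Fgfr1, at 14.6 and 14.9 against 16.8, 15.03 and 15.5 RPKM, had both Cort-/- libraries lower (-0.09, interval -0.33 to 0.15). Every Cort-/- library was lower for 3 of the 8 genes tested and higher for 0, where 8.39% and 7.93% of all genes did so. Pericyte marker sums overlapped here, the Cort-/- libraries lying at 8.34 and 11.8 RPKM and the lowest Cort+/+ library at 9.56 RPKM. Fibroblast and leptomeningeal sums did too (210 to 265 against 246 to 353 RPKM). Both overlaps came from Cort-/- replicate 3, which is low in Rn18s-rs5, while replicate 1 lay below every Cort+/+ library. Of 9 tested fibroblast and leptomeningeal markers 2 were lower and 0 higher at an unadjusted p under 0.05, where 2.19% and 1.4% of all genes were. Astrocyte marker sums stayed apart (13.25 and 14.04 against 16.97 to 17.86 RPKM). The part of these markers in the differences was not tested.

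The environment comparisons ask how BECs respond to OGD-R. They were made on RPKM computed anew from the reads and scaled over all 10 libraries, since the authors scaled the tables separately. In Cort+/+ BECs no gene was called (0% of 15759) and none of the 8 genes tested had an unadjusted p under 0.05, where 3.95% of all genes were higher and 2.55% lower (median log2 fold change 0.09 over the 8, 0.00 over all genes). Fgf2 was the member with every OGD-R library higher, at 2.55, 2.77 and 2.95 RPKM against 2.13, 2.33 and 2.52 RPKM under NX/NG (log2 fold change 0.24, interval -0.03 to 0.50, unadjusted p over 0.05). That was 1 of 8 genes higher throughout and 0 lower, where 7.15% and 5.29% of all genes were. Pdgfb was at 76.0, 87.7 and 97.6 RPKM after OGD-R and at 66.0, 64.2 and 85.9 RPKM under NX/NG (0.28, interval -0.07 to 0.63, unadjusted p over 0.05). Leaving out the OGD-R library low in Rn18s-rs5, the lowest of the 3, made the Pdgfb difference 0.37 (limma FDR 0.570), and leaving out NX/NG replicate 3, the highest of its group, made it 0.41 (limma FDR 0.963). Its unadjusted p was under 0.05 in both of these and in 6 of 16 alternatives in all. Those 6 are not all separate. Leaving out the library low in Rn18s-rs5, leaving out both such libraries and adding a term for them give the same difference in Cort+/+ BECs. Pdgfra, read without the filter, was at 0.573, 0.482 and 0.439 RPKM against 0.375, 0.326 and 0.328 RPKM, with no overlap (0.43, interval -0.17 to 1.02). For Pdgfra limma-voom gave 0.53 (interval 0.09 to 0.98, FDR 0.864). Pdgfrb (-0.06, interval -0.41 to 0.28), Pdgfc (0.09, -0.28 to 0.47), Fgf7 (0.09, -0.23 to 0.40), Fgfr1 (0.08, -0.12 to 0.28), Pdgfd (0.11, -0.23 to 0.45) and Pdgfa (-0.04, -0.36 to 0.29) all had log2 fold changes whose intervals included 0. Without NX/NG replicate 1, that of Fgf7 was 0.23 (unadjusted p under 0.05). Without the library low in Rn18s-rs5 the differences were 0.29 for Fgf2, 0.34 for Pdgfra, 0.24 for Pdgfd and 0.11 for Fgf7. They were 0.0384 for Fgfr1, -0.0728 for Pdgfrb and -0.0997 for Pdgfa, and each of these had an unadjusted p over 0.05. Of 8 smooth muscle markers 0 were higher and 4 lower at an unadjusted p under 0.05, where 2.55% of all genes were lower. Without that library 6 were lower, where 3.63% of all genes were. Of 9 fibroblast and leptomeningeal markers 0 were higher and 1 lower, and 0 of 4 pericyte markers differed. The part of these markers was not tested.

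In Cort-/- BECs, Fgf2, Pdgfrb and Pdgfc, which had been low under NX/NG, were higher after OGD-R. This difference, the genotype difference under NX/NG and the interaction below all use the same 2 Cort-/- NX/NG libraries and are not independent. Again limma called none (0% of 15676), and 3 of the 8 genes tested were higher and 0 lower at an unadjusted p under 0.05, where 2.09% and 1.79% of all genes were (median log2 fold change 0.28, all genes -0.01). Fgf2 was at 2.73 and 2.31 RPKM after OGD-R and at 1.24 and 1.54 RPKM under NX/NG (log2 fold change 0.82, SE 0.20, interval 0.29 to 1.34, limma FDR 0.938). Pdgfrb was at 9.72 and 11.5 against 5.32 and 7.88 RPKM (0.70, SE 0.22, interval 0.09 to 1.30, limma FDR 0.938), and Pdgfc at 2.58 and 2.74 against 1.95 and 1.64 RPKM (0.55, SE 0.16, interval 0.11 to 0.98, limma FDR 0.938). For these 3 genes, and by a narrow margin for Fgfr1 (14.3 and 14.5 against 13.4 and 13.5 RPKM), the environments did not overlap. That made 4 of 8 higher throughout and 0 lower, where 16.2% and 18.1% of all genes were. Fgf7 overlapped, at 7.16 and 11.2 against 7.69 and 5.84 RPKM (0.41, interval -0.31 to 1.13). Leaving out a library moved its difference between 0.0946 (without OGD-R replicate 3) and 0.73 (without OGD-R replicate 1, unadjusted p under 0.05). The Cort-/- OGD-R libraries differed from each other in Pdgfb (114 and 81.0 RPKM) and Pdgfd (48.0 and 35.4 RPKM) by more than the environments did. Without replicate 3, which is low in Rn18s-rs5, the log2 fold change was 0.93 for Fgf2 (unadjusted p under 0.05), 0.58 for Pdgfrb (unadjusted p over 0.05) and 0.51 for Pdgfc (unadjusted p over 0.05), and Fgfr1 (0.0809) and Pdgfra (-0.0143) stayed over it. When replicate 1 of either environment was left out, none of the 3 had an unadjusted p under 0.05, and without NX/NG replicate 2 Pdgfc did not. Markers of other cell types moved in both directions alongside. From NX/NG to OGD-R in Cort-/- libraries, 5 of 9 tested fibroblast and leptomeningeal markers were higher and 1 lower at an unadjusted p under 0.05 (median log2 fold change 0.73), with Col1a1 at 1.13 (limma FDR 0.938) and Ptgds at -1.34 (limma FDR 0.938). Of 4 tested pericyte markers 1 was higher, Cspg4 at 1.93 (limma FDR 0.938), while Rgs5 was at -0.0764 and Anpep at -0.0122. Of 8 smooth muscle markers 0 were higher and 1 lower, the myosin Myh11 at -1.26 (median -0.31, limma FDR 0.938). Without replicate 3 the log2 fold change was 1.01 for Col1a1, -1.04 for Ptgds and 1.76 for Cspg4. Rgs5 was then at 0.23 and Anpep at -0.79. The smooth muscle markers were then at -1.38 (Myh11), -1.23 (Cnn1), -1.02 (Actg2), -0.78 (Lmod1), -0.71 (Tagln), -0.58 (Myl9), -0.51 (Acta2) and -0.006 (Smtn). The part of these markers in the result was not tested.

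**Figure D4:**
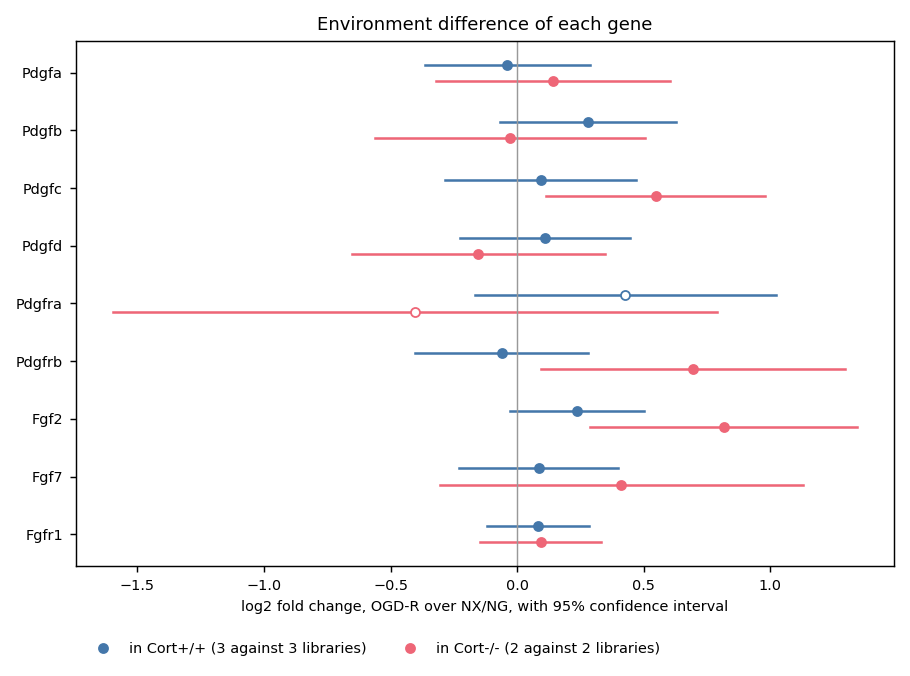
Log2 fold change of OGD-R over NX/NG (points) with its 95% confidence interval from limma (lines) in Cort+/+ (3 against 3 libraries) and Cort-/- BECs (2 against 2); open points mark Pdgfra, read from the fit without a filter. The intervals of Fgf2, Pdgfrb and Pdgfc in Cort-/- BECs lie above 0, and all others include 0.

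Whether the genotype difference itself differed between environments was tested by the interaction of genotype and environment over all 10 libraries. It was positive for Pdgfrb (0.76 on the log2 scale, SE 0.28, interval 0.13 to 1.39, unadjusted p under 0.05) and Fgf2 (0.58, SE 0.20, interval 0.13 to 1.03, unadjusted p under 0.05), meaning that the Cort-/- level lay nearer to wild type after OGD-R. Both had an FDR of 0.9997, no gene was called (0% of 15714), and 1.06% of all genes had a positive and 0.821% a negative interaction at an unadjusted p under 0.05, against 2 and 0 of the 8. The same interaction was positive at an unadjusted p under 0.05 for Cspg4 (1.72), Col1a2 (1.44) and Col6a3 (1.85), for 1 of 4 pericyte and 3 of 9 fibroblast and leptomeningeal markers tested in all, and for the neighbours that overlap Fgf2, Gm43439 (1.62) and Nudt6 (0.55), each at a limma FDR of 0.9997. Their part in the interactions of Pdgfrb and Fgf2 was not tested. For Pdgfc (0.45, interval -0.08 to 0.99) and Fgf7 (0.33, interval -0.35 to 1.01) the interval included 0, and for Pdgfra it was -1.84 to 0.18. Limma-voom gave -1.06 for Pdgfra (interval -1.90 to -0.21, FDR 0.9999). Without both libraries low in Rn18s-rs5, the interaction was 0.65 for Pdgfrb (unadjusted p over 0.05) and 0.65 for Fgf2 (unadjusted p under 0.05), with Pdgfc at 0.52 and Pdgfra at -0.35 (unadjusted p over 0.05). Without Cort-/- NX/NG replicate 1, which has the lowest Pdgfrb and Fgf2 of all libraries, it was 0.48 (unadjusted p over 0.05) and 0.43 (unadjusted p over 0.05). Leaving out a Cort-/- OGD-R library gave 0.46 for Fgf2 without replicate 1 (unadjusted p over 0.05) and 0.64 for Pdgfrb without replicate 3 (unadjusted p over 0.05).

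The balance between ligand and receptor was read within each library, where scaling cancels. The summed level of the 4 PDGF ligands was 115 to 180 RPKM, of which Pdgfb made up 53.8% to 65.3%, Pdgfd 26.8% to 31.4%, Pdgfa 5.76% to 11.7% and Pdgfc 1.01% to 3.48%. The share of Pdgfb was 62.8% and 62.9% in the Cort-/- NX/NG libraries and 56.0%, 53.8% and 60.0% in the Cort+/+ ones. The share of Pdgfc was 1.29% and 1.01% in the Cort-/- NX/NG libraries and 3.48%, 3.03% and 2.04% in their Cort+/+ counterparts, so the shares of the 2 chains differed in opposite directions without overlap. After OGD-R the Pdgfc shares were 1.47% and 2.07% against 3.4%, 2.43% and 2.12%, closer but still without overlap. The ratio of Pdgfb to Pdgfrb was 17.8 and 13.0 in the Cort-/- NX/NG libraries and 5.32, 4.66 and 6.66 in the Cort+/+ NX/NG libraries. After OGD-R this ratio was 11.8 and 7.07 in Cort-/- and 6.01, 5.84 and 9.58 in Cort+/+ libraries, which overlap. The ratio of Pdgfrb to Pdgfra was 10.7 and 10.8 in Cort-/- NX/NG libraries and 33.1 to 42.2 in Cort+/+ NX/NG libraries. Fgf7 exceeded Fgf2 in all libraries, by 2.62 to 6.86 times, with overlap between all groups. No test was run on these ratios, whose parts are the values tested above.

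**Figure D5:**
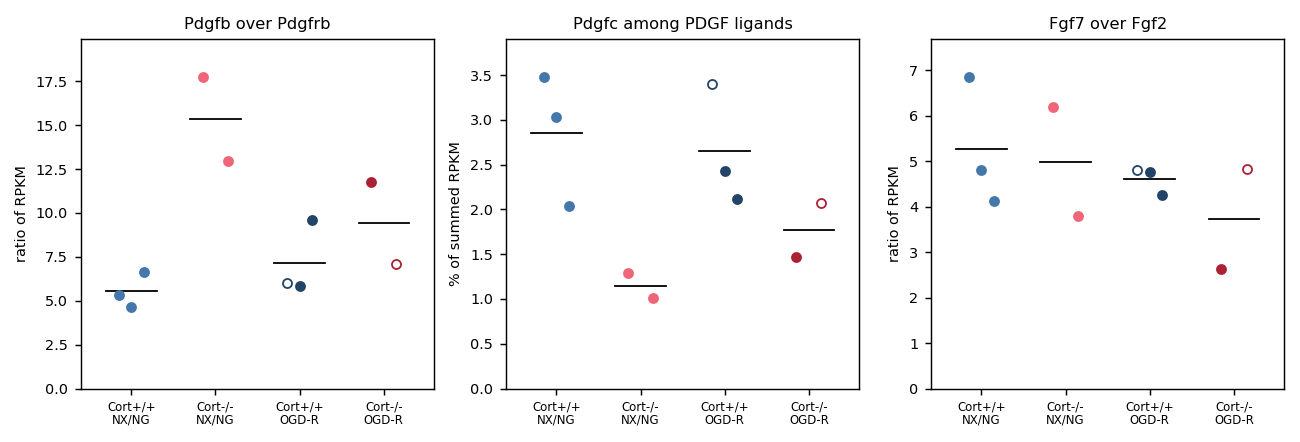
Ratio of Pdgfb to Pdgfrb RPKM, share of Pdgfc in the summed RPKM of the 4 PDGF ligands, and ratio of Fgf7 to Fgf2 RPKM in each library (1 point per library, black bar at the group mean, open points for the 2 libraries with under 1% of reads on Rn18s-rs5). The Cort-/- NX/NG libraries have the highest Pdgfb to Pdgfrb ratios, 13.0 and 17.8, and the lowest Pdgfc shares, 1.01% and 1.29%.

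Over the 10 libraries, which share genotype, environment and scaling, the genes fell along 2 patterns, given here as a description. Pdgfc and Fgf7 had a Pearson correlation of 0.91 on jointly scaled log2 values, Pdgfrb and Fgf2 of 0.80, and Pdgfc and Pdgfrb of 0.79. Pdgfb and Pdgfd correlated at 0.85, and Pdgfa ran against both, at -0.78 with Pdgfb and -0.85 with Pdgfd. Leaving out the 2 libraries low in Rn18s-rs5 gave 0.94 for Pdgfc with Fgf7, 0.93 for Pdgfb with Pdgfd and -0.81 for Pdgfa with Pdgfd over 8 libraries. Among 13788 genes averaging at least 1 RPKM, those most like Pdgfb were Mcam (0.98), an adhesion molecule of endothelial and mural cells, Angpt2 (0.97), the TIE2 ligand angiopoietin-2, and Robo4 (0.96), an endothelial guidance receptor. Those most like Pdgfd were Erap1 (0.98), Actr3 (0.97), a subunit of the actin-branching ARP2/3 complex, and the endothelial adhesion receptor Adgrl4 (0.96). Pdgfc ran closest to Epb41l3 (0.98), the matrix proteoglycan biglycan, Bgn (0.98), and the venous and mesenchymal transcription factor Nr2f2 (0.97). Fgf7 was most like Cd80 (0.98), a T cell co-stimulatory ligand, Usp11 (0.98) and the imprinted noncoding RNA Rian (0.98). Fgf2 was closest to the pericyte marker Cspg4 (0.95), Slit3 (0.94) and Gm42793 (0.92). For Pdgfrb the closest were Tmem119 (0.94), Gm43621 (0.94) and Mark1 (0.94). Fgfr1 was most like C1qtnf12 (0.97), Gm13999 (0.92) and Gm28496 (0.91), and Pdgfa was like Dennd2c (0.97) and Thoc6 (0.97).

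The rest of the pathway was read from 133 genes in 7 lists, of which none was called at an FDR of 0.05 in any of the 5 comparisons. Under NX/NG, 101 of the 133 were tested, and 7 were higher (6.93%) and 16 lower (15.8%) in Cort-/- BECs at an unadjusted p under 0.05, where 5.03% and 7.51% of all genes were. The share of higher genes was thus near that over all genes. Of the other receptors, 2 of 3 tested were lower: Pdgfrl, a PDGF receptor-like protein, averaged 0.702 against 1.52 RPKM (log2 fold change -0.98, limma FDR 0.304), and Fgfr2 averaged 1.16 against 2.06 RPKM (-0.77, limma FDR 0.304). Of 22 other ligands, few were expressed, 3 being tested. The highest of them was Pgf, which exceeded Pdgfb on average. It was at 175 ± 40.0 RPKM (SD, n = 2) in Cort-/- and 122 ± 46.6 RPKM (SD, n = 3) in Cort+/+ libraries (unadjusted p over 0.05). Vegfa, a relative of the PDGFs, averaged 5.07 ± 0.0289 RPKM (SD, n = 2) in Cort-/- and 8.64 ± 1.41 RPKM (SD, n = 3) in Cort+/+ libraries (-0.74, limma FDR 0.240), and Fgf16 0.797 against 0.366 RPKM (0.90, unadjusted p over 0.05). Among 24 tested co-receptors and heparan sulfate genes, which present FGFs to their receptors, 8 were lower and 1 higher. The higher one was the syndecan Sdc3 (61.0 ± 0.873 against 52.3 ± 3.92 RPKM, log2 fold change 0.22, limma FDR 0.355). Other syndecans were among the lower, with Sdc2 at 13.6 ± 0.452 against 21.4 ± 0.734 RPKM (-0.65, SE 0.06, limma FDR 0.111) and Sdc4 at 21.1 ± 0.814 against 28.6 ± 2.05 RPKM (-0.44, limma FDR 0.209).

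Inside the cell, the counts under NX/NG were small in both directions and near the shares over all genes (5.03% higher and 7.51% lower), and nothing is read from them about the pathway. Of 35 adaptors and kinases, all tested, 3 were higher and 3 lower at an unadjusted p under 0.05, the smallest p being those of the kinase Akt2 (3.31 ± 0.447 against 4.77 ± 0.295 RPKM, log2 fold change -0.52, limma FDR 0.269) and of the PI3-kinase subunit Pik3r2 (5.91 ± 0.850 against 8.83 ± 1.05 RPKM, -0.57, limma FDR 0.290). Of 17 feedback inhibitors tested, Ptpn1 was higher (0.18, limma FDR 0.385) and Spred1 lower (-0.29, limma FDR 0.363). Of 13 transcription targets tested, Ccnd1 was higher (0.47, limma FDR 0.383) and the immediate early gene Egr1 lower (3.83 ± 0.665 against 5.99 ± 0.704 RPKM, -0.64, limma FDR 0.287).

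After OGD-R, 2 of 102 tested genes were higher (1.96%) and 5 lower (4.9%) in Cort-/- BECs at an unadjusted p under 0.05, few genes in all, where 1.4% and 2.19% of all genes were. Without the 2 libraries low in Rn18s-rs5 the counts were 3 higher and 8 lower of 103, where 1.78% and 4.54% of all genes were. Vegfa was lower here too (8.29 ± 0.416 against 11.8 ± 1.65 RPKM, log2 fold change -0.49, limma FDR 0.999), and so were Sdc4 (-0.32) and the FGFR-binding adhesion protein Flrt2 (-0.45). The immediate early gene Fos averaged 3.14 against 4.19 RPKM (-0.41) and the phosphatase Ptpn2 4.29 against 5.61 RPKM (-0.39), each at a limma FDR of 0.999. Higher were the cell cycle target Ccnd1 (205 against 138 RPKM, 0.57, limma FDR 0.771) and the PI3-kinase subunit Pik3cb (0.41, limma FDR 0.999). Without the 2 libraries Vegfa was at -0.44 and Fos at -0.35, both at an unadjusted p over 0.05, while Sdc4 (-0.43), Flrt2 (-0.52), Ptpn2 (-0.63), Ccnd1 (0.60) and Pik3cb (0.56) stayed under it.

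In response to OGD-R, transcription targets made up most of the pathway genes at an unadjusted p under 0.05. In Cort+/+ BECs 7 of 15 tested were higher and 1 lower, of 10 and 3 in the pathway (9.71% and 2.91% of 103), where 3.95% and 2.55% of all genes were. In Cort-/- BECs 6 of 14 were higher and 0 lower, of 8 and 1 in the pathway (7.84% and 0.98% of 102), where 2.09% and 1.79% of all genes were. Without the libraries low in Rn18s-rs5 the targets numbered 7 higher and 0 lower of 15 in Cort+/+ (12 and 5 in the pathway) and 3 higher and 0 lower of 14 in Cort-/- BECs (6 and 1 in the pathway), no longer most of them. Fos had a log2 fold change of 0.94 in Cort+/+ (SE 0.12, limma FDR 0.274) and 0.82 in Cort-/- BECs (SE 0.21, limma FDR 0.938). Egr1 had 0.72 (SE 0.11, limma FDR 0.407) and 1.15 (SE 0.16, limma FDR 0.913), with an interaction of 0.43 (unadjusted p over 0.05). Vegfa, a hypoxia target, was higher after OGD-R in both, by 0.38 (limma FDR 0.762) and 0.62 (limma FDR 0.913) on the log2 scale. Without the libraries low in Rn18s-rs5, Vegfa in Cort+/+ (0.27) and Fos in Cort-/- BECs (0.83) had an unadjusted p over 0.05, while Egr1 (0.76 and 1.11) stayed under it in both. The remaining lists had 0 to 2 genes at an unadjusted p under 0.05 in either direction in each genotype.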

How the data were processed

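RNA of BECs was sequenced as paired-end reads with a stranded mRNA kit, per the labels. The authors deposited 1 table of RPKM values for each environment, made with the reanalyzerGSE pipeline, and the submitters' processing notes name edgeR. The aligner, the build, the annotation and whether counting used strand are not given in the sources used here. RPKM times the deposited length, divided by the smallest step of its library, was whole within 0.05 for all values. Taking that step as 1 read gave the reads per gene, 12386048 to 12390428 in all per library. The totals are almost equal. Deposited lengths equalled the exonic bases of GENCODE vM21 (GRCm38) for 98.1% of 30691 genes matched by symbol, and for all 9 genes. Columns of the authors' own comparisons (fold changes, p-values and FDRs) and 10 further columns were not used.

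Genotypes were compared within each table, on log2(RPKM + 0.1), for genes averaging 0.5 RPKM or more, with limma 3.58.1 in R 4.3.3 (moderated test with a trend, two-sided, Benjamini-Hochberg FDR of 0.05, 95% intervals). For environments and the interaction, the reads were rescaled over all 10 libraries by the trimmed mean of M values (30% and 5% trimmed). A fold change on this scale understates that of low genes. The code was tested on simulated data. Libraries of a group were taken as replicates by their labels, each a pool of 3 mice. Intervals on so few libraries are wide, and low genes such as Pdgfra also carry counting error.

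The 9 genes, the pathway and marker lists and the tests were chosen with earlier results of these data known. Named beside them were, for each gene averaging at least 1 RPKM, the 3 genes most correlated with it, from each pathway list those called or else the 2 with the smallest p in a comparison, and from each marker list its highest gene and a few set members. Some genes that this rule selects are not reported here. Overlapping neighbours, Abcc9 and the members of the pathway lists that carry a count were named after their values were seen. Promoter sequences came from RefSeq, which held 6 of the 9 genes. Alternatives were another pseudocount, filter, scaling or test (limma-voom on the reads), all groups in 1 fit, a replicate block, a term for libraries low in ribosomal RNA, and leaving out each library. Leaving out both libraries low in ribosomal RNA, also for the marker and pathway genes, and reading Pdgfra without the filter, were chosen after seeing the data.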

Additional observations from a re-analysis of the deposited data

How the results depend on the processing

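No gene was called at an FDR of 0.05 in any of the 5 comparisons, and limma-voom called 54 under NX/NG and 1 after OGD-R between genotypes. With all groups in 1 fit, 3 genes were called under NX/NG, 5 after OGD-R and 1 between environments in Cort-/- BECs. A pseudocount of 1 RPKM gave 2 after OGD-R. Without the filter, 9 were called between environments in Cort+/+ BECs and 3 for the interaction. Leaving out each library gave 0 to 2 for the interaction, the 2 without Cort-/- OGD-R replicate 1. Of the 9 genes, Pdgfrb under NX/NG was called by limma-voom (-1.01, FDR 0.0400). The causes were not tested.

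Of the log2 fold changes of the 9 genes under the alternatives, 633 kept their direction and call and 40 turned direction, none of these at an unadjusted p under 0.05. None of the 9 genes was called in the main fits, so keeping the call mostly means staying uncalled. The count does not show how often an unadjusted p under 0.05 was lost, and it counts alternatives that give the same fit separately. Over the left-out libraries, the genotype difference after OGD-R ranged from -0.21 to 0.13 for Pdgfa, -0.10 to 0.40 for Pdgfb, -0.25 to 0.19 for Pdgfd and -0.55 to 0.23 for Pdgfra. The environment difference in Cort+/+ BECs ranged from -0.12 to 0.0717 for Pdgfa, -0.0351 to 0.20 for Pdgfc, -0.0037 to 0.24 for Pdgfd, -0.20 to 0.0825 for Pdgfrb and -0.0137 to 0.23 for Fgf7. In Cort-/- BECs it ranged from -0.0311 to 0.32 for Pdgfa, -0.28 to 0.22 for Pdgfb and -0.37 to 0.0657 for Pdgfd, and the interaction from -0.0489 to 0.0645 for Fgfr1. Without both libraries low in ribosomal RNA, Pdgfd was at 0.0632 and Pdgfra at 0.32 after OGD-R, Pdgfc at -0.0117 in Cort+/+ and Pdgfa at -0.0311, Pdgfb at 0.22 and Pdgfd at 0.0657 in Cort-/- BECs, and the interaction of Fgf7 at -0.0125. A term for these libraries gave 0.0408 for Pdgfd after OGD-R and -0.0043 for the interaction of Fgfr1. Within a genotype the term gives the same environment differences as leaving out the low library, and so adds no separate check. Scaling by total reads alone gave 0.0233 for Pdgfa and 0.0007 for Pdgfrb in Cort+/+ and 0.0632 for Pdgfb in Cort-/- BECs.

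Same-numbered libraries of different groups had correlations of -0.531 to 0.185 between their deviations from group means. Deviations of the 2 Cort-/- libraries of an environment mirror each other. These values therefore cannot decide whether same-numbered libraries share more than a number. With the replicate block no gene was called. After OGD-R, Pdgfa was at 0.0099, Pdgfc at -0.52 and Fgf7 at -0.47 with the replicate block, both at an unadjusted p over 0.05, and the interaction of Fgfr1 was at -0.0201. Under NX/NG the replicate block gave Pdgfd an unadjusted p under 0.05, and between environments in Cort+/+ BECs it did so for Pdgfb (0.28). No fit with the block was made between environments in Cort-/- BECs, where 1 number is shared. Where leaving out a library left 1 in a group, that library was assumed to vary like the others.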
